A study of Mus musculus with 163 samples.

Results

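The genes described here encode the nuclear subunits of the mitochondrial respiratory chain and of ATP synthase, measured in inner hair cells (IHC) and outer hair cells (OHC) of the mouse cochlea. They were chosen by gene symbol, as Sdha to Sdhd and every symbol with the prefix Atp5, Cox4 to Cox8, Nduf or Uqcr. That rule was met by 106 of the 55291 genes counted. Leaving out 9 symbols with the ending -ps and 4 further genes annotated as processed pseudogenes (Cox6c2, Ndufa11b, Ndufb4c and Ndufs6b) gave 93 members. They comprise 44 genes of complex I, 4 of complex II, 8 of complex III, 20 of complex IV and 17 of complex V. The symbols also take in 10 proteins that are not subunits of an assembled complex, namely the 8 complex I assembly factors Ndufaf1 to Ndufaf8, the supercomplex assembly factor Cox7a2l and the coupling factor Atp5s, so that 83 members are subunits. Ndufb1-ps, left out by its symbol and annotated as a noncoding RNA, had 285 CPM (a gene's counts per 1000000 counts of the group or cell) in Exp OHC, 265 CPM in Ctrl OHC, 284 CPM in Exp IHC and 348 CPM in Ctrl IHC, the groups described next.

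The respiratory chain oxidises NADH and succinate at complexes I and II, passes the electrons through ubiquinone, complex III and cytochrome c to complex IV, and uses the proton gradient that complexes I, III and IV build to drive ATP synthesis at complex V. Complexes I, III, IV and V combine nuclear subunits with subunits encoded by mitochondrial DNA, whereas complex II is encoded by nuclear genes alone. Hair cells are mechanosensory cells with a continuous energy demand for ion transport and synaptic transmission, and outer hair cells additionally amplify sound by length changes.

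Single fluorescent hair cells were picked by hand from digested cochleae at postnatal day 7, and full-length cDNA was made from each cell with a Smart-Seq kit. Exp cells (Rbm24-/-) came from mice labelled Atoh1P2A-Cre/P2A-Tdtomato/+; Rbm24flox/flox, in which Cre is expressed from the Atoh1 locus of hair cells, and comprise 56 Exp OHC and 26 Exp IHC. Ctrl cells came from mice labelled Atoh1P2A-Tdtomato/+ and comprise 43 Ctrl OHC and 38 Ctrl IHC. All groups share a tdTomato insertion at Atoh1, and the Cre allele, which modifies the other copy of Atoh1, differs between Exp and Ctrl together with Rbm24, an RNA-binding protein of splicing and mRNA stability, so that their effects cannot be told apart. The labels give no animal for any cell, so each group is 1 sample, cells are not replicates, and the comparisons carry no test.

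Cells held 5467115 to 18072166 counts, with medians of 1.28e+07 in Exp OHC, 9.09e+06 in Ctrl OHC, 1.42e+07 in Exp IHC and 8.67e+06 in Ctrl IHC. Rbm24 itself stood at 0.212 CPM in Exp OHC against 315 CPM in Ctrl OHC, and at 1.51 CPM in Exp IHC against 431 CPM in Ctrl IHC. The 5 outer hair cell markers examined were Lbh, Ikzf2, Slc26a5, Ocm and Aqp11. They summed to 234 CPM in Exp OHC, 6574 CPM in Ctrl OHC, 56.1 CPM in Exp IHC and 97.7 CPM in Ctrl IHC. Exp OHC thus held few of these transcripts beside Ctrl OHC. The cell type of each group is that of its label and was not assigned from markers. The 5 inner hair cell markers (Tbx2, Slc17a8, Fgf8, Otof and Slc7a14) summed to 463 CPM in Exp OHC, 1246 CPM in Ctrl OHC, 2248 CPM in Exp IHC and 3621 CPM in Ctrl IHC. Otof alone was at 390 CPM in Exp OHC, 1151 CPM in Ctrl OHC and 1696 CPM in Exp IHC. In Exp OHC, Tbx2 was at 2.15 CPM, Slc17a8 at 0.0472 CPM and Fgf8 at 1.38 CPM, against 154, 110 and 265 CPM in Exp IHC. Slc7a14 went the other way, at 69.5 CPM in Exp OHC and 23.3 CPM in Exp IHC. The 5 general hair cell markers (Pvalb, Pou4f3, Gfi1, Myo7a and Myo6) summed to 4701 CPM in Exp OHC, 4227 CPM in Ctrl OHC, 5511 CPM in Exp IHC and 6821 CPM in Ctrl IHC. Myo6 (2669 against 2050 CPM) and Myo7a (455 against 259 CPM) were higher in Exp OHC than in Ctrl OHC. Pvalb (1004 against 1093 CPM), Pou4f3 (487 against 626 CPM) and Gfi1 (85.8 against 199 CPM) were lower. The directions were the same in inner hair cells. In the same order of groups, markers of supporting cells summed to 6.48 CPM, 27.2 CPM, 14.9 CPM and 19.5 CPM, and those of neurons to 195 CPM, 204 CPM, 296 CPM and 205 CPM. Snap25 made up nearly all of the neuron sum, at 194, 203, 296 and 203 CPM. Nefh, Prph and Tubb3 were each at 2.16 CPM or less in every group. Each list of glial, mesenchymal, erythroid, immune and endothelial markers summed to under 10 CPM in every group. The part of these markers in the results was not tested. The sex of the cells was not balanced: Xist without Y-linked transcripts was found in 37 of 56 Exp OHC, 10 of 43 Ctrl OHC, 19 of 26 Exp IHC and 12 of 38 Ctrl IHC. Cells also divided by the pseudogene Gm15772, which reached 40 CPM in 40, 18, 19 and 15 cells of the same groups. Results are therefore also given within 4 cell sets: cells with Y-linked transcripts and no Xist, cells with Xist and no Y-linked transcripts, cells under 40 CPM of Gm15772, and cells at or above it. The smallest of these holds 7 cells.

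The members were abundant. Of the 93, 88 reached a mean of 1 CPM over the 4 groups, each with counts in every group, and 86 reached 10 CPM. The 5 that did not pass are the muscle or testis isoforms Cox6a2, Cox7b2, Cox8b and Cox8c and the hypoxia-associated Ndufa4l2, of which Cox6a2 and Cox7b2 had no count in any cell. Together the members took 22417, 33758 and 58999 CPM in the lowest, median and highest Exp OHC, against 29697, 39171 and 53161 CPM in Ctrl OHC. In inner hair cells the corresponding values were 26674, 33054 and 40758 CPM in Exp IHC, against 27177, 37840.4 and 55779.6 CPM in Ctrl IHC. Cells of all groups overlapped, but 44 of 56 Exp OHC and 25 of 26 Exp IHC lay below the median of the Ctrl cells of their type.

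Across the 88 members that passed, levels in both mutant cell types were slightly lower than in controls. In outer hair cells 69 of 88 had a lower CPM in Exp than in Ctrl, a share of 78.4% against 46.7% of all 14785 genes above the same minimum, and the median log2 ratio was -0.19 against 0.06 over all genes. In inner hair cells 69 of 88 were also lower, against 45.0% of all genes, and the median log2 ratio was -0.24 against 0.10. A level at least 1.5-fold lower was found for 10 members in Exp OHC (background 21.8% of all genes) and for 5 in Exp IHC (background 20.8%), and a level at least 1.5-fold higher for 3 members in Exp OHC (background 27.8%) and 2 in Exp IHC (background 28.1%). The number at least 1.5-fold lower depended on scaling in inner hair cells, at 15 with TMM factors (23.3% of all genes under the same scaling) and 11 with median-of-ratios factors (22.5%). In outer hair cells it depended on the cells used, from 16 within low Gm15772 cells (25.8%) to 2 within high Gm15772 cells (26.4%). Past 1.5-fold either way lay 13 of 88 members beside 49.5% of all genes in outer hair cells, and 7 of 88 beside 48.9% in inner hair cells, where all genes include many of low level. Of the 2125 protein-coding genes with a mean of 100 CPM or more, 13.1% were at least 1.5-fold lower in Exp OHC and 10.0% in Exp IHC. Within the cell sets (Y-linked, Xist, low and high Gm15772) the members' median log2 ratio was -0.25, -0.14, -0.26 and -0.093 in outer and -0.23, -0.29, -0.26 and -0.20 in inner hair cells. The 2 cell types were compared in separate cells, which may come from the same animals. Lower in both were 60 members, and 10 were higher in both (Cox4i2, Ndufa9, Ndufaf6, Ndufb2, Ndufs4, Ndufs6, Ndufs7, Ndufv3, Sdhc and Sdhd). Another 9 each were lower in only the OHC or only the IHC comparison. The share of all genes lower or higher in both is not given here. With 69 of 88 lower in each comparison, many would be lower in both even if the comparisons were unrelated. Cox7a1 and Ndufb9 were at least 1.5-fold lower in both. At 2-fold Cox7a1 alone was lower in each Exp cell type (background 13.4% of all genes in outer and 13.2% in inner hair cells) and Cox4i2 alone was higher (background 18.8% and 18.2%, and 32.1% and 31.4% either way).

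**Figure D1:**
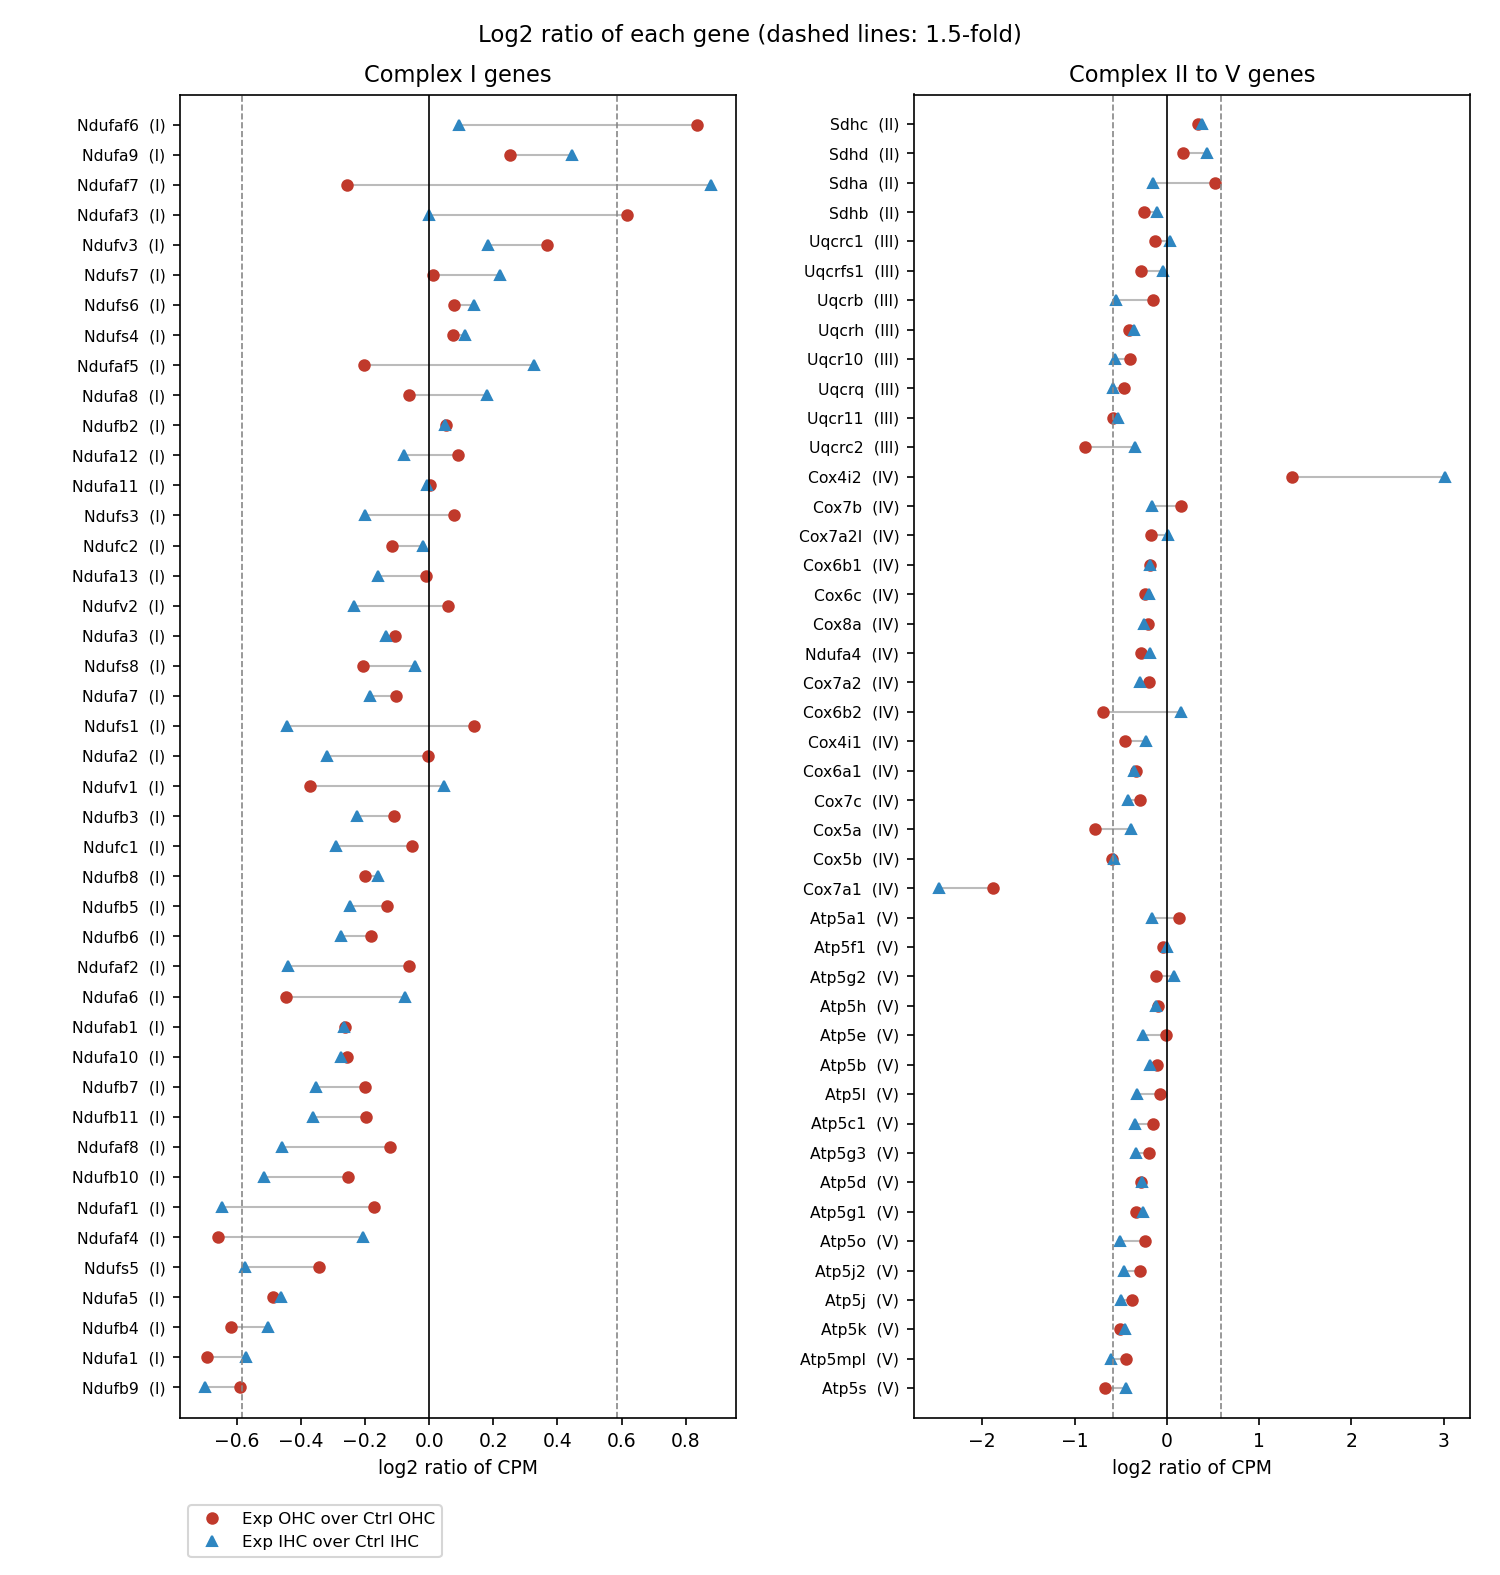
Log2 ratio of group CPM (horizontal axis) for members above the minimum level, complex I on the left and complexes II to V on the right, sorted within a complex by the sum of both ratios. Red circles are Exp OHC over Ctrl OHC and blue triangles Exp IHC over Ctrl IHC; dashed lines mark 1.5-fold. Most points lie left of 0 in both cell types, complex III lies furthest left, and Cox4i2 (1.35 and 3.01) and Cox7a1 (-1.88 and -2.47) lie outside the range of the others.

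The 5 complexes did not share 1 ratio. Over subunits, the median log2 ratio in outer hair cells was -0.11 for complex I, 0.26 for complex II, -0.40 for complex III, -0.29 for complex IV and -0.17 for complex V. In inner hair cells it was -0.21, 0.14, -0.44, -0.24 and -0.29 for complexes I to V. Complex III was therefore lowest, and complex II was the only one with a median above 0 in both cell types. The complex II median rests on 4 genes, of which 1 was lower in Exp OHC and 2 were lower in Exp IHC. For comparison, the 13 subunits encoded by mitochondrial DNA were all lower in Exp cells, with medians of -0.44 in outer and -0.70 in inner hair cells. Their outer hair cell median was 0.02 within Xist-positive cells and -0.05 within cells at 40 CPM or more of Gm15772, against -0.60 and -0.68 in the complementary sets.

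**Figure D2:**
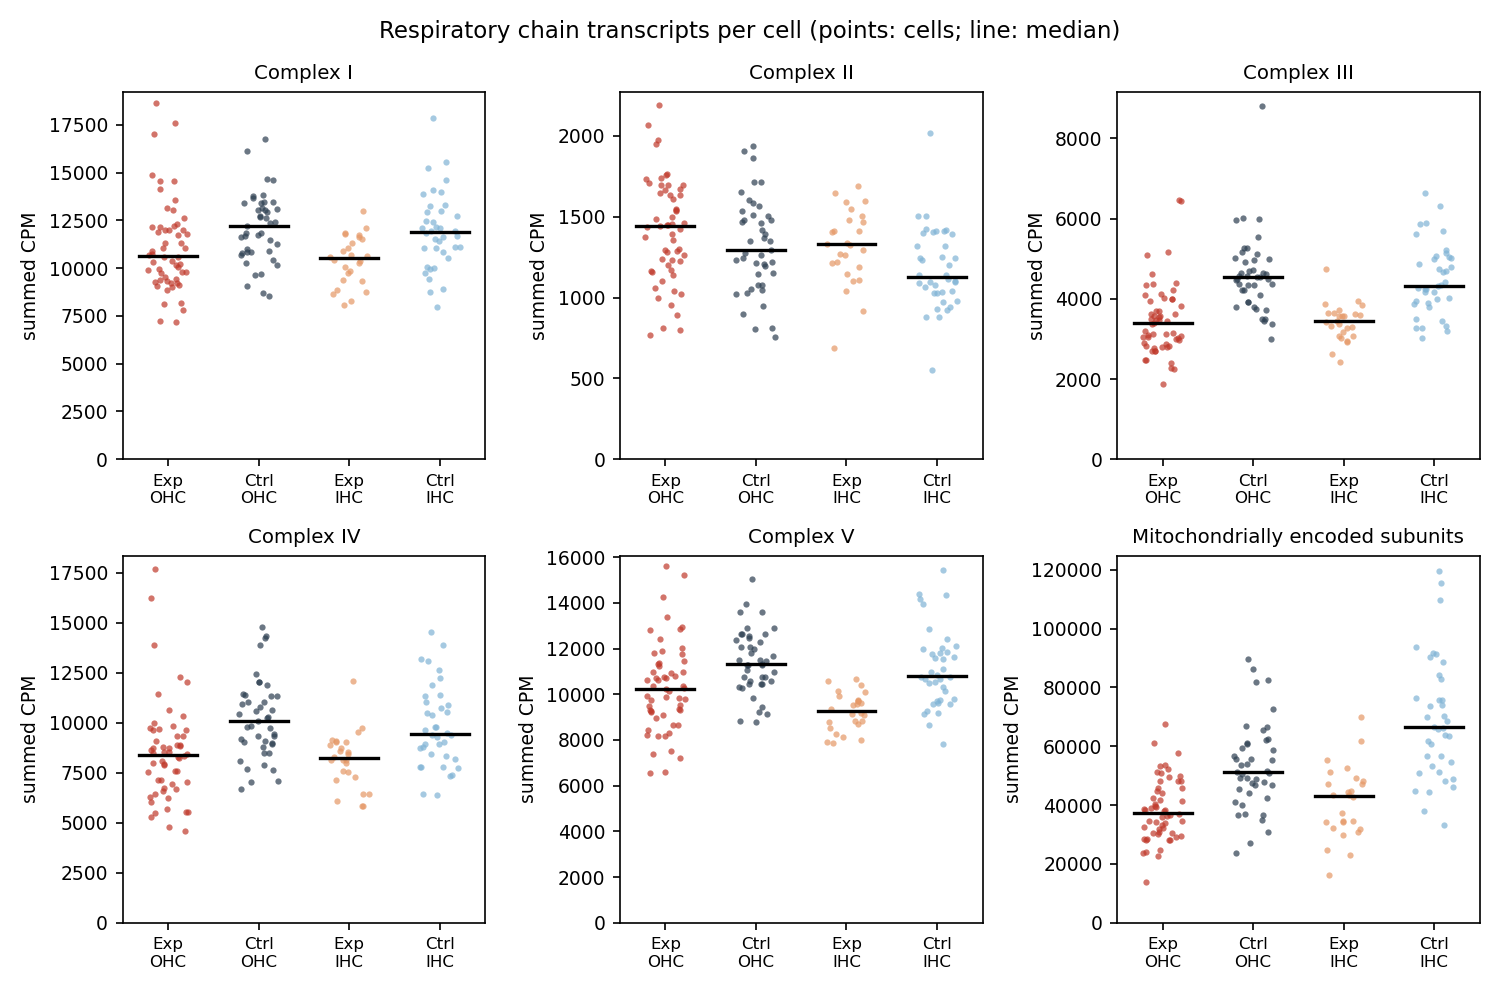
Summed CPM per cell (vertical axis) of the members of each complex and of the 13 mitochondrially encoded subunits, in Exp OHC (red), Ctrl OHC (dark), Exp IHC (orange) and Ctrl IHC (light blue). Points are cells and lines are medians; complexes I, III, IV and V and the mitochondrially encoded subunits have lower medians in both Exp groups, complex II has higher medians, and the groups overlap throughout.

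Nuclear respiratory genes are known for promoters that bind the factors Nrf1, Gabpa (an ETS factor) and Yy1, and the promoters of 76 members were read from RefSeq (GRCm38.p6), each from 250 bases before to 50 bases after the start. The Nrf1 letters, GCGCA followed by any base and GCGC, were found on either strand in 24.7% of the 81 windows of the members and in 4.60% of all 32851 windows. The ETS letters CCGGAAG were found in 22.2% of member windows and 8.86% of all windows, and the Yy1 letters AAGATGGCG in 9.88% and 1.40%. The TATA box letters TATAAA were found in 9.88% and 13.6%. G and C made up a median of 58.3% of the bases of member windows and 52.7% of those of all windows. The part of this base content in the shares was not tested. Members with no window in that table include Ndufa2, Ndufb9, Ndufaf6, Ndufs1, Sdhc, Uqcrb, Uqcrc2, Uqcrq, Cox4i1, Cox4i2, Cox6a2, Cox6c, Cox8c, Ndufa4l2, Atp5a1 and Atp5mpl. The 19 measured members with the Nrf1 letters had median log2 ratios of -0.19 in outer and -0.15 in inner hair cells, beside -0.19 and -0.24 for the 55 without. The 18 with the ETS letters had -0.19 and -0.30, beside -0.19 and -0.18 for the 56 without. The 8 with the Yy1 letters had -0.020 and -0.089, beside -0.20 and -0.23 for the 66 without, and the 5 with the TATA box letters had -0.10 and -0.18, beside -0.20 and -0.24 for the 69 without. A match is a description of the letters and not of binding. The windows below are those of members with the same Nrf1 letters and ratios of opposite sign: Sdha and Sdhd, higher in Exp OHC, and Ndufb4 and Atp5k, lower in Exp OHC. They were picked after these signs were seen, so the opposite signs follow from the choice. Each is written 5′ to 3′ on the strand of the gene (minus strand of the genome for all 4), with matches to the Nrf1 and ETS letters on either strand in capitals; no 2 matches overlap.
Sdha (chr13:74350191-74350490): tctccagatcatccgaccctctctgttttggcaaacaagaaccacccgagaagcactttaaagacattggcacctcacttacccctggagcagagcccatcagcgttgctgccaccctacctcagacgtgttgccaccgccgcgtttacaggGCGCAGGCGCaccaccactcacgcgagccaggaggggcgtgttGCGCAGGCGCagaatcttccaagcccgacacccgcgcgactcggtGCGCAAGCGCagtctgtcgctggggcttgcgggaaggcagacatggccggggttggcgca
Sdhd (chr9:50603800-50604099): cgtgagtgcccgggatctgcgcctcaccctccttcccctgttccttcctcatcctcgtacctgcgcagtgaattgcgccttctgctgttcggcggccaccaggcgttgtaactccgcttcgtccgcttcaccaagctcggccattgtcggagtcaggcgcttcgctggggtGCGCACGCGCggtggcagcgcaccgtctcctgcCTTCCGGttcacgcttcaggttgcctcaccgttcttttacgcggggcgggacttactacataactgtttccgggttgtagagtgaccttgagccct
Ndufb4 (chr16:37654319-37654618): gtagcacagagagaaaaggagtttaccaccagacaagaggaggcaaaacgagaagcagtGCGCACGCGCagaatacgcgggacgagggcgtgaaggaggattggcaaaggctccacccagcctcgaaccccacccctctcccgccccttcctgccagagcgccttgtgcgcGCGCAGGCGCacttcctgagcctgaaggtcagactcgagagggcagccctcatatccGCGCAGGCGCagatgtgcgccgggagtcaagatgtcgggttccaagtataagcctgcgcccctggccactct
Atp5k (chr5:108434350-108434649): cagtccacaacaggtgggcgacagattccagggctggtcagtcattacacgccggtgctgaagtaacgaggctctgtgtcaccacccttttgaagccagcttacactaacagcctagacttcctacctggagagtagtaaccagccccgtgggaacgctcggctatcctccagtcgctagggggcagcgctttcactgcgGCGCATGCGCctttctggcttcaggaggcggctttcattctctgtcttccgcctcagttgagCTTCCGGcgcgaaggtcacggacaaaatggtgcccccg

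Sdha carries 3 matches to the Nrf1 letters and Ndufb4 also 3, while Sdhd and Atp5k carry 1 Nrf1 and 1 ETS match each. Their log2 ratios in outer hair cells were 0.52 for Sdha, 0.17 for Sdhd, -0.62 for Ndufb4 and -0.51 for Atp5k, and in inner hair cells -0.15, 0.44, -0.50 and -0.45.

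Complex I, the entry point for NADH, summed to 7191, 10656 and 18643 CPM in the lowest, median and highest Exp OHC, against 8554, 12202 and 16766 CPM in Ctrl OHC. The values were 8095, 10512 and 13000.5 CPM in Exp IHC, against 7951, 11875 and 17843 CPM in Ctrl IHC. Of the 15 subunits assigned to the matrix arm, which oxidises NADH, 7 were lower in Exp OHC and 10 in Exp IHC, with medians of 0.01 and -0.08. Of the 19 assigned to the membrane arm, which pumps protons, 17 were lower in Exp OHC and 17 in Exp IHC, with medians of -0.18 and -0.27. Not all of the 36 subunits of complex I were assigned to an arm, and Ndufa9 was assigned to neither. The arms were assigned after the ratios had been seen, and the difference between them was not tested.

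Among matrix arm subunits, the 7 nuclear core subunits had medians of 0.01 in outer and -0.20 in inner hair cells. Ndufs1, which carries iron-sulphur clusters, was at 165 CPM in Exp OHC and 150.4 CPM in Ctrl OHC, and at 119 CPM in Exp IHC and 162 CPM in Ctrl IHC, so that its ratio pointed upward in outer (0.14) and downward in inner hair cells (-0.44). Ndufv1, which binds NADH and flavin, did the opposite, at 231 CPM in Exp OHC and 299 CPM in Ctrl OHC against 248 CPM in Exp IHC and 240.3 CPM in Ctrl IHC. For Ndufs1, 36 of 56 Exp OHC lay above the Ctrl OHC median, and 14 of 26 Exp IHC lay below the Ctrl IHC median. Other core subunits had log2 ratios of 0.06 and -0.24 (Ndufv2), 0.08 and -0.20 (Ndufs3), 0.01 and 0.22 (Ndufs7) and -0.21 and -0.04 (Ndufs8), outer before inner hair cells. Ndufv3, an accessory subunit of the NADH-binding module, was the matrix arm subunit with the highest ratio in outer hair cells, at 435 CPM in Exp OHC and 337 CPM in Ctrl OHC (0.37). Ndufa9, which sits where the arms meet and was counted in neither, had the highest log2 ratio of the subunits of complex I in inner hair cells. It measured 0.0799, 213 and 595 CPM in the lowest, median and highest Exp IHC, against 0, 151 and 396 CPM in Ctrl IHC, with a log2 ratio of group levels of 0.44 (0.43 to 0.46). The range after a log2 ratio is its exact conditional binomial 95% interval, which covers counting error only and not differences between animals.

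In the membrane arm, Ndufa1, Ndufb4 and Ndufb9 were at least 1.5-fold lower in Exp OHC. Ndufa1, a small X-linked accessory subunit needed for assembly, measured 239.6, 481 and 1076 CPM in the lowest, median and highest Exp OHC, against 263, 743 and 1988 CPM in Ctrl OHC, with a log2 ratio of -0.69 (-0.70 to -0.69). Its cells overlapped, with 49 of 56 Exp OHC below the Ctrl OHC median. Within Xist-positive cells alone that ratio was -0.11, and within cells at 40 CPM or more of Gm15772 it was -0.15, so it passed 1.5-fold in only 2 of the 4 cell sets. Ndufb9, an accessory subunit of the distal membrane arm (chr15:58933756-58939488, plus strand, on GRCm38 as annotated in GENCODE M21), measured 155, 285 and 446 CPM in Exp IHC, against 246, 485 and 735 CPM in Ctrl IHC, with a log2 ratio of -0.70 (-0.71 to -0.69). Here 26 of 26 Exp IHC lay below the Ctrl IHC median. In outer hair cells Ndufb9 measured 121, 363 and 830.2 CPM in Exp OHC, against 127, 555 and 1054 CPM in Ctrl OHC, with a ratio of -0.59 (-0.60 to -0.58), which stayed negative but did not reach 1.5-fold in any of the 4 cell sets. Ndufb4, whose promoter carries 3 matches to the Nrf1 letters, was at 223 CPM in Exp OHC and 342 CPM in Ctrl OHC, with a log2 ratio of -0.62 that ranged from -1.03 to -0.19 over the cell sets. The other X-linked subunit of the complex, Ndufb11, had ratios of -0.20 and -0.36. Ndufa11 was level in both cell types, at 375 CPM in Exp OHC and 374 CPM in Ctrl OHC, and at 326 CPM in Exp IHC and 328 CPM in Ctrl IHC.

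The 8 assembly factors of complex I averaged 21.3 to 103 CPM over the 4 groups. In outer hair cells Ndufaf6, a factor for the early assembly of the complex, measured 0, 106 and 238 CPM in the lowest, median and highest Exp OHC, against 0, 46.3 and 240.1 CPM in Ctrl OHC, with a log2 ratio of 0.83 (0.81 to 0.86). 42 of 56 Exp OHC lay above the Ctrl OHC median, but the ratio was 0.15 within Xist-positive cells. Ndufaf3 was likewise higher in Exp OHC (110.0 CPM) than in Ctrl OHC (71.8 CPM), with a log2 ratio of 0.62, and was level in inner hair cells. Its exons overlap those of Impdh2 on the opposite strand by 48 bases. Ndufaf4 was lower in Exp OHC, at 64.7 CPM against 102 CPM in Ctrl OHC. In inner hair cells Ndufaf7, a methyltransferase, measured 0, 114 and 291 CPM in Exp IHC, against 0, 46.2 and 251 CPM in Ctrl IHC, with a log2 ratio of 0.88 (0.85 to 0.90) that exceeded 1.5-fold in all 4 cell sets. Ndufaf1 was lower in Exp IHC, at 28.7 CPM against 45.0 CPM in Ctrl IHC (-0.65), and ranged from -1.05 to -0.33 over the cell sets. This held for the group sums, while 14 of 26 Exp IHC lay below the Ctrl IHC median and 12 above it.

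Complex II, succinate dehydrogenase, belongs both to the chain and to the tricarboxylic acid cycle. It summed to 769, 1440.0 and 2189.6 CPM in the lowest, median and highest Exp OHC, against 755, 1292 and 1937 CPM in Ctrl OHC, and to 689, 1328 and 1691 CPM in Exp IHC, against 555, 1125 and 2016 CPM in Ctrl IHC. 35 of 56 Exp OHC and 21 of 26 Exp IHC lay above the Ctrl median of their type. Both membrane anchors, Sdhc and Sdhd, had higher group levels in each Exp cell type. Sdhd measured 165, 419.8 and 677 CPM in Exp IHC, against 46.4, 332 and 531 CPM in Ctrl IHC, with a log2 ratio of 0.44 (0.43 to 0.45). In outer hair cells it measured 107, 453 and 833 CPM in Exp OHC, against 69.6, 374 and 717 CPM in Ctrl OHC, with a ratio of 0.17 (0.16 to 0.18), which was -0.12 within Xist-positive cells. Sdhc had ratios of 0.34 in outer and 0.38 in inner hair cells. Of the catalytic subunits, the flavoprotein Sdha was higher in Exp OHC, at 261 CPM against 182 CPM in Ctrl OHC (0.52, interval 0.51 to 0.53), and not in Exp IHC, at 182 CPM against 202 CPM in Ctrl IHC (-0.15, interval -0.16 to -0.13). The iron-sulphur subunit Sdhb was lower in both, with ratios of -0.25 and -0.11. No member of complex II reached 1.5-fold in either comparison. The median of the 4 within the cell sets was 0.40, 0.08, 0.41 and 0.16 in outer and 0.16, 0.37, 0.14 and 0.27 in inner hair cells. The ratio of summed complex II to summed complex V CPM in a cell had a median of 0.137 in Exp OHC and 0.117 in Ctrl OHC, and of 0.146 in Exp IHC and 0.107 in Ctrl IHC.

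Complex III, which oxidises ubiquinol, had the lowest medians. It summed to 1881, 3392 and 6466 CPM in the lowest, median and highest Exp OHC, against 3010.3, 4533 and 8811 CPM in Ctrl OHC, and 51 of 56 Exp OHC lay below the Ctrl OHC median. In inner hair cells it summed to 2419, 3442 and 4739.7 CPM in Exp IHC, against 3029.9, 4329 and 6628 CPM in Ctrl IHC, with 25 of 26 Exp IHC below the Ctrl IHC median. The summed group level was 25.4% lower in Exp OHC and 24.1% lower in Exp IHC. All 8 subunits were lower in Exp OHC and 7 of 8 in Exp IHC, the exception being Uqcrc1 (0.04). Uqcrc2, a core structural protein (chr7:120635176-120659524, plus strand), had the lowest log2 ratio of the members at or above 10 CPM in outer hair cells. It measured 0, 118 and 361 CPM in Exp OHC, against 0.156, 244 and 616 CPM in Ctrl OHC, with a log2 ratio of -0.88 (-0.89 to -0.87). 47 of 56 Exp OHC lay below the Ctrl OHC median, and 6 Exp OHC and 1 Ctrl OHC were under 10 CPM. The ratio ranged from -1.25 to -0.46 over the 4 cell sets. In inner hair cells it was -0.35. The small subunit Uqcr11 measured 291, 813 and 1863 CPM in Exp OHC, against 718, 1144 and 3123 CPM in Ctrl OHC, with a ratio of -0.58 (-0.59 to -0.58), just inside the 1.5-fold limit. Uqcrq, which binds near the ubiquinone site, was just outside it in inner hair cells, at 536 CPM in Exp IHC against 806 CPM in Ctrl IHC (-0.59). The median of the 8 within the cell sets was -0.44, -0.33, -0.46 and -0.32 in outer and -0.39, -0.52, -0.44 and -0.40 in inner hair cells. The Rieske iron-sulphur protein Uqcrfs1 had ratios of -0.28 and -0.04.

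Complex IV, cytochrome c oxidase, contains the tissue isoforms. Its members summed to 4577, 8398 and 17714 CPM in the lowest, median and highest Exp OHC, against 6698, 10113 and 14788 CPM in Ctrl OHC, and to 5839.9, 8231 and 12088 CPM in Exp IHC, against 6374, 9436 and 14549 CPM in Ctrl IHC. Cox5a (chr9:57521274-57532426, plus strand) measured 89.4, 249 and 514 CPM in Exp OHC, against 169.8, 429 and 1127 CPM in Ctrl OHC, with a log2 ratio of -0.78 (-0.79 to -0.77). 53 of 56 Exp OHC lay below the Ctrl OHC median, and the ratio exceeded 1.5-fold in all 4 cell sets (-0.95 to -0.66). In inner hair cells Cox5a was at 296 CPM in Exp IHC and 388 CPM in Ctrl IHC (-0.39). Cox5b was lower in both cell types by a similar amount, at 556 CPM in Exp OHC and 841 CPM in Ctrl OHC (-0.60), and at 517 CPM in Exp IHC and 771 CPM in Ctrl IHC (-0.58).

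The isoform pairs of complex IV were dominated by the ubiquitous form in every group. Per kilobase of the main transcript, Cox4i1 made up 98.2% of the Cox4i pair in Exp OHC, 99.5% in Ctrl OHC, 94.8% in Exp IHC and 99.4% in Ctrl IHC. Cox7a2 made up 99.7% of its pair with Cox7a1 in Exp OHC, 98.9% in Ctrl OHC, 99.7% in Exp IHC and 98.6% in Ctrl IHC. Cox6b1 made up 99.5%, 99.3%, 99.1% and 99.3% of its pair with the testis form Cox6b2 in the same order of groups. Cox6a1 and Cox7b made up 100% of their sets in every group. The minor forms Cox4i2 and Cox7a1 had the ratios furthest from 0 among the 88 members. Cox4i2 (chr2:152754173-152765037, plus strand), an isoform known from lung and from responses to low oxygen, was at 57.1 CPM in Exp IHC and 7.08 CPM in Ctrl IHC, with a log2 ratio of 3.01 (2.95 to 3.07). It measured 0.0933, 42.3 and 207 CPM in the lowest, median and highest Exp IHC, against 0, 0.169 and 35.0 CPM in Ctrl IHC. 23 of 26 Exp IHC reached 10 CPM, a share of 88.5% (69.8 to 97.6%), against 9 of 38 Ctrl IHC, a share of 23.7% (11.4 to 40.2%), with exact binomial intervals. These intervals treat cells as independent draws, leave out differences between animals and are no test between the groups. The inner hair cell ratio was 2.50 to 3.31 over the 4 cell sets. In outer hair cells Cox4i2 was at 18.3 CPM in Exp OHC and 7.18 CPM in Ctrl OHC (1.35, interval 1.29 to 1.41), with 16 of 56 and 4 of 43 cells at or above 10 CPM. This outer hair cell value depended on few cells: 1 Exp OHC held 36.2% of the counts of its group and 1 Ctrl OHC held 73.2%, and the ratio was 2.61 without the highest cell of each group and -0.25 within Xist-positive cells. Cox4i1 was lower in Exp cells, at 1032 CPM in Exp OHC and 1412 CPM in Ctrl OHC (-0.45), and at 1082 CPM in Exp IHC and 1269 CPM in Ctrl IHC (-0.23). Cox7a1, the heart and muscle isoform, was near the detection limit of single cells, at 1.22 CPM in Exp OHC and 4.49 CPM in Ctrl OHC (-1.88), and at 0.929 CPM in Exp IHC and 5.14 CPM in Ctrl IHC (-2.47, interval -2.64 to -2.30). Only 3 of 56 Exp OHC, 8 of 43 Ctrl OHC, 0 of 26 Exp IHC and 8 of 38 Ctrl IHC reached 10 CPM. For 0 of 26 cells the exact binomial interval, which treats cells as independent draws, reaches 13.2%. For scale, 3 of 26 cells are 11.5%. Cox7b, the X-linked subunit, was at 364 CPM in Exp OHC and 328 CPM in Ctrl OHC (0.15), and at 395 CPM in Exp IHC and 443 CPM in Ctrl IHC (-0.17).

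**Figure D3:**
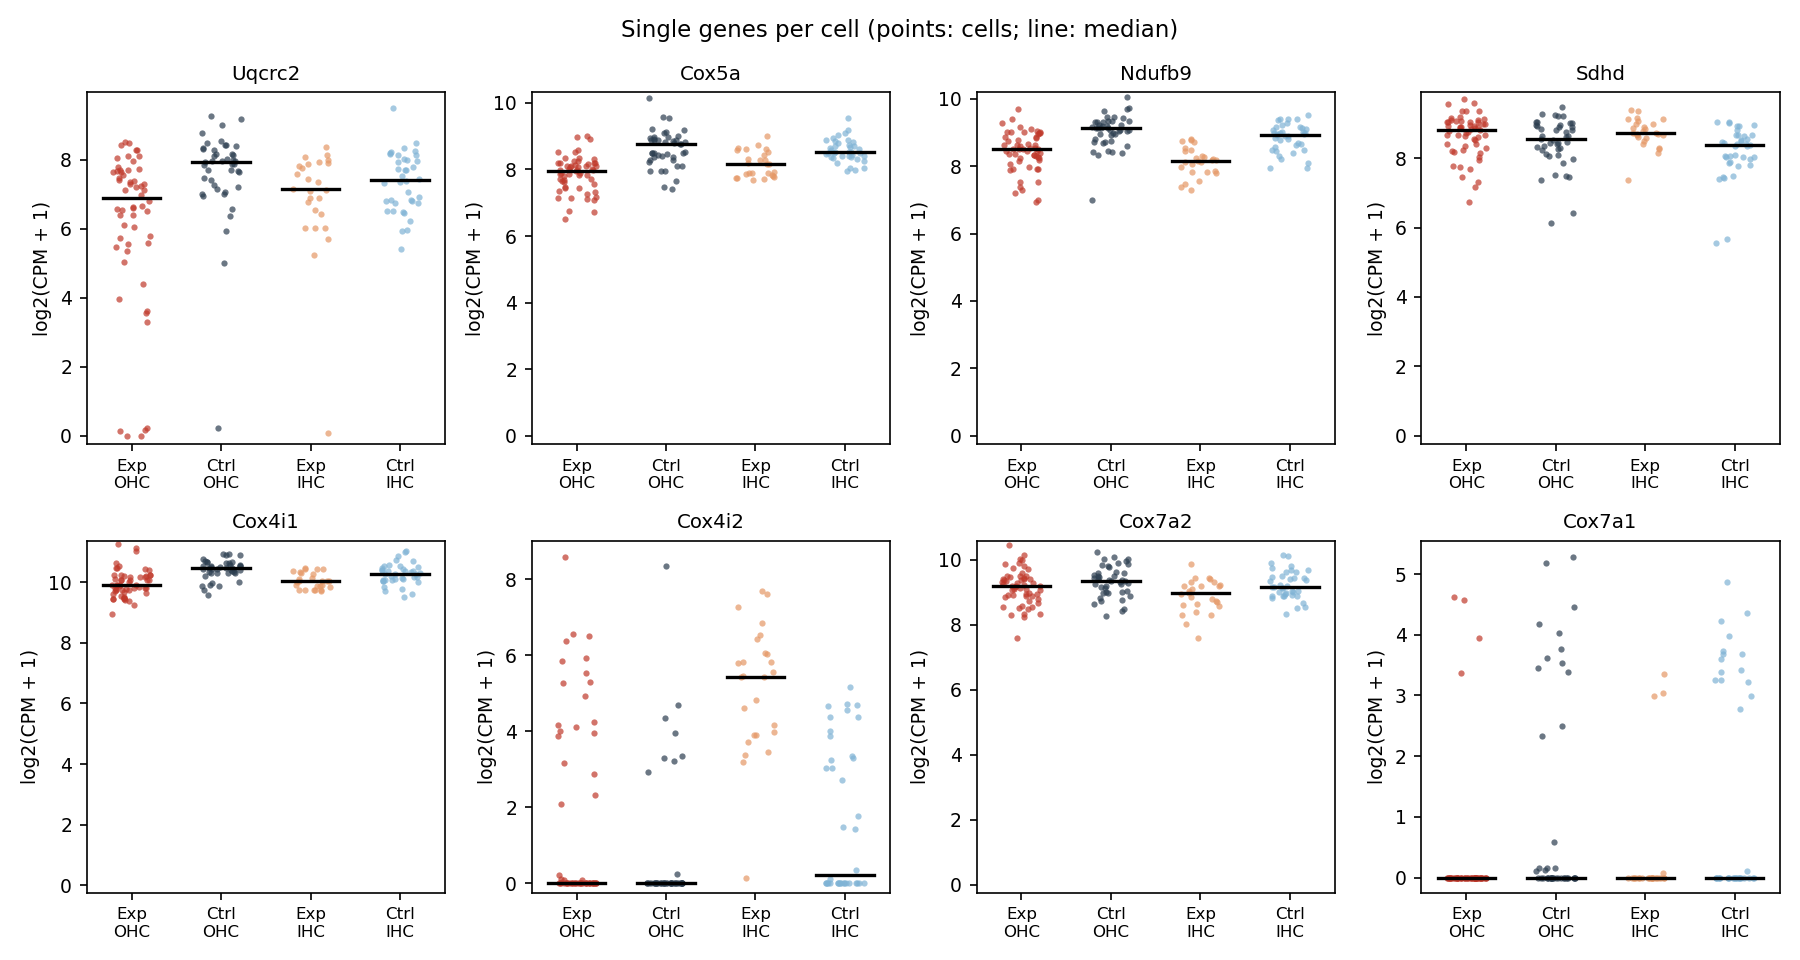
Level of 8 members in each cell, as log2(CPM + 1) on the vertical axis, in Exp OHC (red), Ctrl OHC (dark), Exp IHC (orange) and Ctrl IHC (light blue); points are cells and lines are medians. Cox5a, Ndufb9 and Uqcrc2 have lower medians in Exp than in Ctrl cells with overlapping ranges, Cox4i2 is above 10 CPM in 23 of 26 Exp IHC and 9 of 38 Ctrl IHC, and Cox7a1 is at 0 in most cells of every group.

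Complex V, ATP synthase, summed to 6537, 10246 and 15618 CPM in the lowest, median and highest Exp OHC, against 8787, 11314 and 15032 CPM in Ctrl OHC. It summed to 7858, 9262 and 10658 CPM in Exp IHC, against 7835, 10809 and 15440.0 CPM in Ctrl IHC, and 26 of 26 Exp IHC lay below the Ctrl IHC median. The 5 subunits of the catalytic F1 head had medians of -0.11 in outer and -0.26 in inner hair cells. The 11 subunits of the membrane part and stalk had medians of -0.24 and -0.34. The catalytic subunit Atp5b was at 2111 CPM in Exp OHC and 2274 CPM in Ctrl OHC, and at 1831 CPM in Exp IHC and 2079 CPM in Ctrl IHC. Its partner Atp5a1 was the 1 subunit of the complex above 0 in outer hair cells (0.13). Atp5mpl, a small membrane subunit, had the lowest ratio of the complex in inner hair cells. It measured 133, 239.8 and 411 CPM in Exp IHC, against 153, 373 and 684 CPM in Ctrl IHC, with a log2 ratio of -0.60 (-0.62 to -0.59) and 25 of 26 Exp IHC below the Ctrl IHC median. That ratio ranged from -0.88 to -0.25 over the cell sets. Atp5s, a coupling factor outside the assembled complex, was at 35.6 CPM in Exp OHC and 56.6 CPM in Ctrl OHC (-0.67), but its ratio was 0.25 within cells at 40 CPM or more of Gm15772. The 3 genes for the ring subunit c were led by Atp5g3, which per kilobase of the main transcript made up 67.5% in Exp OHC, 67.8% in Ctrl OHC, 65.5% in Exp IHC and 70.1% in Ctrl IHC. These shares depend on the lengths used, which were 4715 bases for Atp5g1, 731 for Atp5g2 and 723 for Atp5g3.

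Few members differed past 1.5-fold between control outer and inner hair cells. Of the 88 members 53 were higher and 35 lower in Ctrl OHC than in Ctrl IHC, with 48.1% of all genes lower, and the median log2 ratio was 0.04 against 0.03 over all genes. Only 2 were at least 1.5-fold higher (background 24.5%) and 2 at least 1.5-fold lower (background 21.6%, and 46.1% either way). No member reached 2-fold (background 15.4% higher, 14.1% lower and 29.5% either way). Higher in Ctrl OHC were Atp5mpl, at 585 CPM against 382 CPM in Ctrl IHC (0.62), and Ndufaf5, at 33.6 CPM against 20.8 CPM in Ctrl IHC (0.69). For Ndufaf5 this held for the group sums and not for the median cell, where the log2 ratio was -0.26, and 21 of 43 Ctrl OHC lay above the Ctrl IHC median. Cox7a2l, a factor for supercomplexes of complexes III and IV, followed at 252 CPM in Ctrl OHC and 183 CPM in Ctrl IHC (0.46). Lower in Ctrl OHC were the complex I assembly factors Ndufaf2, at 16.6 CPM against 30.4 CPM in Ctrl IHC (-0.88), and Ndufaf8, at 54.6 CPM against 82.0 CPM in Ctrl IHC (-0.59). Ndufa2, a matrix arm subunit, was the lowest of the subunits at 303 CPM in Ctrl OHC and 418 CPM in Ctrl IHC (-0.46). The mitochondrially encoded subunits were lower in Ctrl OHC for 13 of 13 genes, with a median of -0.31.

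Levels between genes were compared per kilobase of the main transcript. The highest subunit of complex I was Ndufa1, at 1185 CPM per kilobase in Exp OHC, 1915 in Ctrl OHC, 1117 in Exp IHC and 1659 in Ctrl IHC. In complex II it was Sdhb, at 396, 471, 407 and 439 CPM per kilobase in the same order of groups. In complex III it was Uqcr11, at 1801, 2700.0, 1825 and 2640.3, and in complex IV Cox8a, at 2612, 3005, 2779 and 3291. In complex V the highest was Atp5b in Exp OHC (1102), Atp5j in Ctrl OHC (1344) and Ctrl IHC (1352), and Atp5e in Exp IHC (1126). Among subunits with a mean of at least 10 CPM, the lowest were Ndufb2 in complex I, at 6.63 and 6.39 in Exp OHC and Ctrl OHC, Uqcrc2 in complex III (69.8 and 129), Cox4i2 in complex IV (25.0 and 9.80) and Atp5g1 in complex V (88.4 and 112), and each was also the lowest in both inner hair cell groups. In complex II the lowest was Sdhc in Exp OHC (86.9) and Ctrl IHC (54.1), and Sdha in Ctrl OHC (62.8) and Exp IHC (62.8). The order depended on the length used: per kilobase of all annotated exons, Sdhd led complex II and Atp5o led complex V in every group. By that length the lowest in every group were Sdha in complex II and Atp5l, not Atp5g1, in complex V. The main transcript used for Ndufb2 has 4371 bases, and its low level per kilobase depends on that length. Exons of Ndufb2 also overlap those of Gm42420 on the same strand by 145 bases, and those of Braf and Gm16272 on the opposite strand. Across 76 subunits, the log2 ratio correlated with transcript length at a Spearman coefficient of 0.29 in outer and 0.34 in inner hair cells, and with level at -0.28 and -0.25, so shorter and more abundant subunits had lower ratios. These correlations are across genes of the same libraries, which are not independent. The 517 other protein-coding genes with a main transcript under 1500 bases and a mean of at least 100 CPM had median log2 ratios of 0.14 in outer and 0.03 in inner hair cells. The part of length and level in the group differences was not tested.

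Cells varied in members together. Across cells of a group, summed complex I correlated with complex IV at Spearman coefficients of 0.88 in Exp OHC, 0.89 in Ctrl OHC, 0.82 in Exp IHC and 0.85 in Ctrl IHC. Complex I with complex III gave 0.84, 0.82, 0.63 and 0.86, and complex I with complex V 0.79, 0.52, 0.59 and 0.72, in the same order. Complex I with complex II gave 0.19, 0.10, -0.12 and 0.15. The complex II sum rests on 4 genes, against 8 for complex III and 44 for complex I. The part of these gene numbers in the coefficients was not tested. All sums share the depth and composition of a library, so these values are descriptions. The members' sum also correlated with the percentage of counts from mitochondrial genes (0.50, 0.54, 0.61 and 0.55) and negatively with the number of genes detected (-0.35, -0.49, -0.62 and -0.56). It correlated with the summed cytosolic ribosomal protein genes at 0.54, 0.17, 0.66 and 0.70, and with the total counts of a cell at -0.39, 0.12, 0.12 and 0.011. The part of depth in the group differences was not tested. The median number of genes detected was 9698.5 in Exp OHC, 9774 in Ctrl OHC, 10236.5 in Exp IHC and 10209 in Ctrl IHC, and its part in the group differences was not tested. For single members with at least 10 CPM, the median coefficient of variation over cells was 41.7% in Exp OHC, 36.0% in Ctrl OHC, 32.5% in Exp IHC and 33.8% in Ctrl IHC.

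Other gene lists of mitochondrial and energy metabolism did not share the members' shift in every case. The 77 measured genes of the mitochondrial ribosome had medians of 0.04 in outer and -0.07 in inner hair cells. The 77 cytosolic ribosomal proteins had 0.18 and -0.02. Of the 17 enzymes of the tricarboxylic acid cycle, which include the 4 members of complex II, 11 were higher in each Exp cell type, with medians of 0.11 and 0.03. Of 19 glycolytic genes, 11 were higher in Exp OHC and 9 in Exp IHC, and the lactate dehydrogenase subunit Ldhb was lower, at 549 CPM in Exp OHC and 1437 CPM in Ctrl OHC, and at 134 CPM in Exp IHC and 524 CPM in Ctrl IHC. The glycolytic Pfkl (0.76 and 1.04) and Eno2 (0.85 and 0.91) and the cycle enzyme Suclg2 (1.71 and 1.18) were higher in both. Of 39 measured assembly factors outside the symbol rule, 22 were lower in each cell type, with medians of -0.11 and -0.05, and Coa5, a complex IV factor, was at least 1.5-fold lower in both (-0.70 and -1.33). Among 12 genes of the mobile carriers, 6 were higher in Exp OHC and 7 in Exp IHC, and the ubiquinone synthesis genes Coq8b (1.12 and 1.17) and Coq4 (0.90 and 1.11) were at least 1.5-fold higher in both. Of 18 regulators of mitochondrial biogenesis, 11 were higher in Exp OHC and 13 in Exp IHC. At least 1.5-fold higher were 2 in Exp OHC (11.1%, background 27.8% of all genes) and 6 in Exp IHC (33.3%, background 28.1%). At least 1.5-fold lower were 3 in Exp OHC (16.7%, background 21.8%) and 2 in Exp IHC (11.1%, background 20.8%). The lower ones in Exp OHC were the estrogen-related receptor Esrra (-1.70), the mitochondrial helicase Twnk (-1.32) and the coactivator Pprc1 (-0.93), and those in Exp IHC were the coactivator Ppargc1b (-0.79) and Gabpb2 (-0.62). Esrra and Twnk were higher in Exp IHC (0.69 and 0.67). The higher ones in both include the estrogen-related receptor Esrrg, at 11.6 CPM in Exp OHC and 2.17 CPM in Ctrl OHC, and at 11.8 CPM in Exp IHC and 0.887 CPM in Ctrl IHC, and the mitochondrial RNA polymerase Polrmt, at 9.14 CPM in Exp OHC and 3.24 CPM in Ctrl OHC, and at 10.6 CPM in Exp IHC and 3.72 CPM in Ctrl IHC. Of the 8 genes for ATP export and ATP synthase inhibition, 4 were higher in Exp OHC and 5 in Exp IHC.

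**Figure D4:**
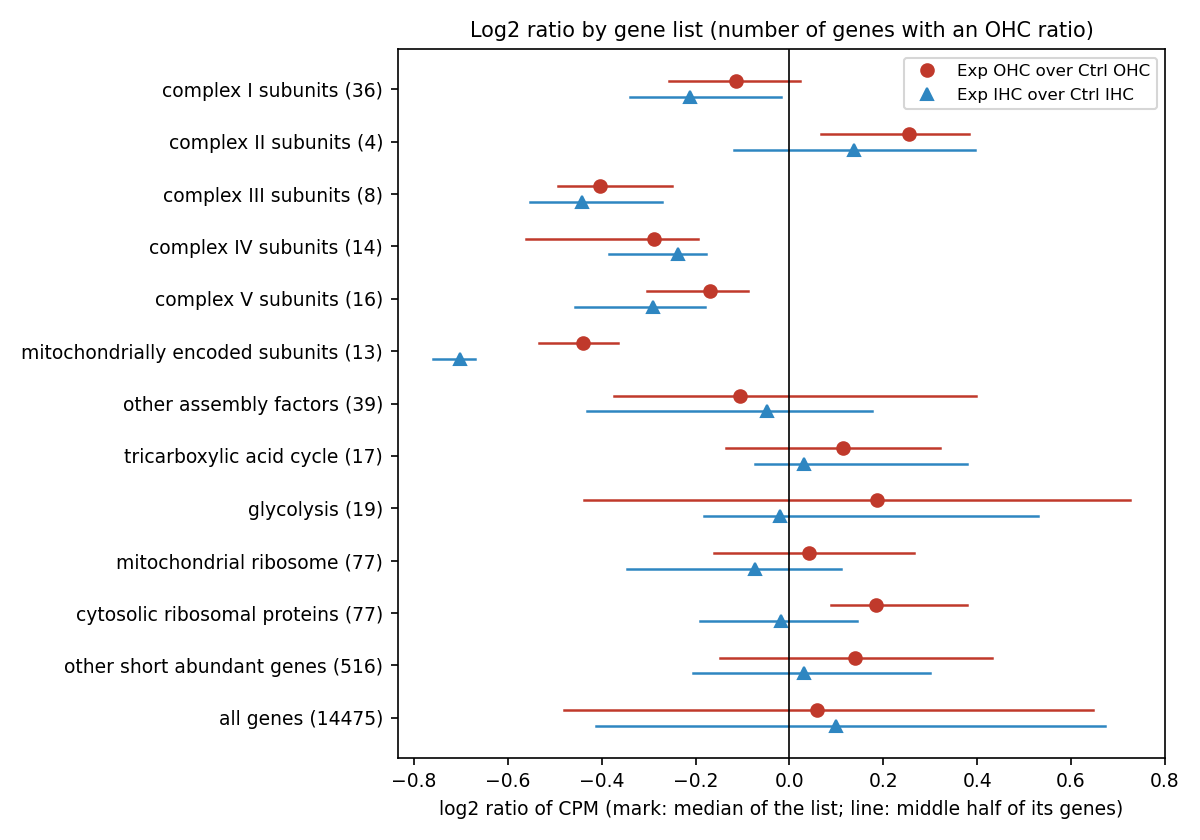
Log2 ratio of group CPM (horizontal axis) for lists of genes (vertical axis, with the number of genes that have an outer hair cell ratio). Marks are medians, red circles for Exp OHC over Ctrl OHC and blue triangles for Exp IHC over Ctrl IHC, and lines run between the quartiles of the genes of a list; complexes I, III, IV and V and the mitochondrially encoded subunits lie left of 0 in both, and complex II lies right of 0.

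Several members have near-identical copies or overlap other genes. Of the 93 main transcripts 45 share no run of 50 bases with a transcript of another gene, 17 share at least 20% of their runs and 4 (Atp5g2, Atp5l, Atp5o and Cox7c) at least 50%. Cox5a shares 32.0%, Uqcrc2 24.8%, Ndufb9 23.4% and Ndufb4 37.0%. How the authors' counting treated such reads is not given in the sources used here, so levels of these genes are uncertain. The runs of Uqcrc2 are shared with Pdzd9, which overlaps its exons by 504 bases on the opposite strand, and those of Ndufb9 with Gm49356 on the same strand. The 71 measured members that share less than 20% had median log2 ratios of -0.19 in outer and -0.23 in inner hair cells, with 54 lower in each.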

How the data were processed

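Full-length cDNA of single hair cells, 1 library per cell, was measured in 163 cells of 4 groups. The deposited values are raw counts of reads per gene and cell. Per the submitters' processing notes, reads were aligned to mm10 with HISAT2 2.2.1, handled with SAMtools and counted with featureCounts 2.0.1; neither the annotation nor the settings for strand and for reads with several matches are given in the sources used here. The protocol gives no molecular identifiers, so counts are reads and not molecules.

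For each group, the counts of its cells were added up per gene and scaled by the total of all genes (720407678 in Exp OHC, 399570786 in Ctrl OHC, 364755085 in Exp IHC and 348518300 in Ctrl IHC) to give CPM. Genes with a mean of at least 1 CPM over the groups entered comparisons, and a 1.5-fold ratio was the limit for a call. With 1 sample per group no test across replicates exists. The 95% intervals of levels (exact Poisson) and of ratios (conditional binomial) cover counting error only. Those of shares of cells (Clopper-Pearson) treat cells as independent draws. None of the intervals covers differences between animals. Of the gene identifiers 99.5% matched GENCODE M21 (GRCm38, the assembly also called mm10), which gave coordinates, biotypes and transcript lengths; the genes with no match were kept in the totals. Sex sets used a minimum of 1 CPM for Xist or the Y-linked genes.

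The members, lists and comparisons were chosen with earlier results of these data known. Genes were named by a rule: the 3 lowest and 3 highest ratios of each comparison at a mean of 10 CPM or more, the highest and lowest level per kilobase in each complex, the catalytic core, the isoform sets, X-linked members and assembly factors past 1.5-fold; related genes were named only past 1.5-fold. Members named beside these were chosen after their values were seen, and a member that the rule names is not reported here. Alternatives changed the scaling (TMM in edgeR 4.0.16 with R 4.3.3, median of ratios, totals without mitochondrial genes), the group level, the minimum, the fold and the cells. Calculations used Python 3.11.15, NumPy 2.4.6, pandas 2.3.3, SciPy 1.17.1 and matplotlib 3.10.9, and were tested on simulated counts.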

Additional observations from a re-analysis of the deposited data

How the results depend on the processing

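With 1 sample per group, precision beyond counting error is unknown, and members under 10 CPM rest on few cells. The scaling shifted the median of all genes: it was 0.06 and 0.10 in outer and inner hair cells, 0.03 and 0.01 with TMM factors, and the members' median minus that of all genes was -0.25 and -0.34, which scaling by group totals cannot change. It was -0.11 and -0.20 with the median of cells, and -0.095 in outer hair cells at or above 40 CPM of Gm15772. No paired analysis was possible because each group is 1 sample and the number of a cell only names it.

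The count of members below 0 stayed within 1.5 times the reported count in both Exp comparisons under every alternative tried, from 55 (cells at 40 CPM or more of Gm15772) to 75 (TMM, inner hair cells). The median log2 ratio was -0.33 (TMM) and -0.30 (median of ratios) in inner and -0.25 (median of ratios) in outer hair cells. It was -0.25 within Y-linked cells, -0.26 under 40 CPM and -0.093 at or above 40 CPM of Gm15772 in outer hair cells, -0.29 within Xist-positive inner hair cells, and -0.022 within Xist-positive cells for Ctrl OHC over Ctrl IHC.

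The number at least 1.5-fold lower in Exp IHC was 15 with TMM (23.3% of all genes in the same setting), 11 with median of ratios (22.5%), 10 without mitochondrial genes in the total (22.1%), 9 within Y-linked (29.9%), 11 within Xist-positive (24.4%) and 8 within low Gm15772 cells (29.4%). In Exp OHC it was 6 with the mean of cells (22.2%), 16 within low (25.8%) and 2 within high Gm15772 cells (26.4%). The number higher over subunits only was 1 in Exp OHC (27.8% of all genes) and 1 in Exp IHC (28.1%). Within Xist-positive cells it was 1 in Exp OHC (33.8%). For Ctrl OHC over Ctrl IHC, 1 was lower (21.0% of all genes) and 1 higher (24.4%) with the mean of cells. With the median of cells 1 was higher (14.9%). Over subunits only, 0 were lower (21.6%) and 1 higher (24.5%). Within Xist-positive cells 5 were lower (27.8%) and 5 higher (29.1%). At 2-fold, 1 was lower and 1 higher in each Exp comparison and 0 either way between controls. The shares of all genes were 13.4% lower and 18.8% higher in Exp OHC, and 13.2% and 18.2% in Exp IHC. Between controls the share was 29.5% either way. Of the named values past 1.5-fold, the direction reversed for Ndufaf5 in Ctrl OHC over Ctrl IHC (-0.26 with the median of cells), Cox4i2 in outer hair cells (-0.25 within Xist-positive cells) and Atp5s in outer hair cells (0.25 within high Gm15772 cells). Smaller values that changed sign include, within Xist-positive cells, Sdhd (-0.12) and the median of the mitochondrially encoded subunits (0.02) in outer hair cells, and the members' median for Ctrl OHC over Ctrl IHC (-0.022). The cause was not tested.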
